A study of Mus musculus with 16 samples.

Results

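The genes described here are 6 genes expressed in early B cells, though not all in these alone, measured in RNA of the newborn mouse inner ear. Every probe set whose platform annotation gives Vpreb3, Vpreb1, Igll1, Cd79a, Cd79b or Rag1 as its gene symbol was taken, and the rule uses no measured value, although the genes were picked with earlier results of these data known. This gave 10 probe sets for the 6 genes, of 12422 probe sets and 8251 genes with their own symbol on the chip. Vpreb3, Vpreb1, Igll1 and Rag1 have a pair of probe sets each, and Cd79a and Cd79b have 1 each.

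Whole inner ears were taken at P0 (the day of birth) from wild-type and COUP-TFI-/- mice, both of strain 129SvEv. COUP-TFI-/- mice lack the orphan nuclear receptor COUP-TFI, encoded by Nr2f1, and the labels name no promoter or cell type to which the loss is restricted. RNA of several ears was pooled, and 8 Affymetrix MG-U74Av2 chips were hybridized in 2 sets, A and B, at different times. Each set held 1 RNA pool of each genotype on 2 duplicate chips, so each genotype has 2 pools (n = 2) and the set cannot be told apart from its pools. The labels give no sex, number of ears in a pool or dissection date. Each chip was deposited as GCRMA values (log2) and as dChip intensities (linear), which are 2 summaries of the same hybridization and not separate samples.

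B cell precursors assemble an immunoglobulin heavy chain gene with the RAG recombinase and test the product by pairing it with a surrogate light chain. The resulting pre-B cell receptor signals through a dimer of CD79A and CD79B, and a cell whose receptor signals goes on to proliferate and to rearrange a light chain gene. In the newborn mouse this takes place in the liver and increasingly in bone marrow, and the inner ear lies within the otic capsule, which ossifies around birth. No labelled group of these samples is a B cell population, so the levels below are those of a whole tissue, in which fewer cells of a type and less RNA per cell cannot be told apart.

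The RefSeq promoter set used here has an entry for 5 of the 6 genes in mouse build GRCm38.p6, all but Cd79b, which RefSeq does list as a gene. The 250 bases before the annotated start are shown for 3 genes, 5′ to 3′ on the strand of the gene. Vpreb3 and Cd79a are shown because they passed the test between sets below, and Vpreb1 because it alone holds the COUP-TF half-site AGGTCA. A single half-site is not the repeat of this word that the study gives as the element of highest affinity for COUP-TFs. The 3 stretches lie at chr10:75948050-75948299 (plus strand), chr7:24897247-24897496 (plus strand) and chr16:16869256-16869505 (minus strand). Capitals mark every match, on either strand, to the octamer ATTTGCAT, the E-box words CAGGTG and CAGCTG, the COUP-TF half-site AGGTCA and the EBF core CCCNNGGGA, none of which overlap here.
Vpreb3: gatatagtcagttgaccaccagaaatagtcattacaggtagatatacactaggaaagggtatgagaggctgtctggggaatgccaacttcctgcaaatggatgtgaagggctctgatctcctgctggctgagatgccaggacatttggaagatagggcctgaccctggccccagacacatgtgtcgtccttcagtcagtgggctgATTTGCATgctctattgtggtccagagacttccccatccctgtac
Cd79a: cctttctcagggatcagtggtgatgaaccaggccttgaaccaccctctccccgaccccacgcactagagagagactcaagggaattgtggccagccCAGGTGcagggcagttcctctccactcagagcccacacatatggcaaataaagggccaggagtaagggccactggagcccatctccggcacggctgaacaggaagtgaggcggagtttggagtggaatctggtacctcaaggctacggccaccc
Vpreb1: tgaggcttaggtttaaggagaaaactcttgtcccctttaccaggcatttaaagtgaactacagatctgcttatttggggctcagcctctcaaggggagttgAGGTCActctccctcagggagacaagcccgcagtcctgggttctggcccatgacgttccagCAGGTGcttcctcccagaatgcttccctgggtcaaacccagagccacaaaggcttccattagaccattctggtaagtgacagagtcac
The capitals in Vpreb3 are the octamer, bases 45 to 38 before the start, a word bound by OCT factors that 1.6% of all 32851 promoters hold in the same 250 bases. In Cd79a they are CAGGTG, bases 154 to 149 before the start, the word bound by E proteins, which 17.2% of all promoters hold. Vpreb1 has AGGTCA at bases 149 to 144 and CAGGTG at bases 88 to 83, and AGGTCA occurs in 14% of all promoters. Of the promoters not shown, Igll1 and Rag1 each hold CAGGTG and CAGCTG (13% of all promoters). No member promoter read here holds an exact match to CCCNNGGGA, which 5.6% of all promoters do. Only exact words were counted, so ctcaaggga in Cd79a, close to that word, is not marked. The lack of a match does not show the lack of an EBF site. A match is a description of these letters only. In the order of RefSeq genes Igll1 and Vpreb1 are direct neighbours on chromosome 16.

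The chips were alike in level, with median GCRMA values of 7.20 to 7.23 and median dChip intensities of 291 to 305. The targeted gene followed the labels. Nr2f1 lay at 7.74 to 8.83 on the wild-type chips and at 4.68 to 5.26 on the COUP-TFI-/- chips (log2 GCRMA), a difference of -3.37 (limma, adjusted p = 5.9e-11). All 15 measured inner ear markers had mean levels above the lowest 25% of probe sets, and none was at 0 with dChip.

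Among the 10 probe sets of the early B cell genes, 0 passed an adjusted p of 0.05 for genotype in either normalization. Duplicate chips were averaged to pool values, and limma tested genotype with hybridization set as a blocking factor, adjusting p by Benjamini-Hochberg over all probe sets. It called 0.105% of all probe sets with GCRMA and 0.00805% with dChip, so few calls of any kind were made. At an unadjusted p under 0.05, 1 of the 10 passed with GCRMA (Cd79b), beside 4.58% of all probe sets, and 0 with dChip, beside 2.13%. The methods' 2-way analysis of variance on the 8 chips, at its unadjusted threshold of 0.01, called 2 with GCRMA (Cd79b and Vpreb3 93957_at), beside 3.36% of all probe sets, and 0 with dChip, beside 3.66%. After adjustment it called 0 of the 10 with either. Its error is the spread between duplicate chips of a pool, so it leaves out the spread between pools. The study's final hit list also required no interaction and a genotype p under 0.05 in the other normalization. The differences (COUP-TFI-/- minus wild-type, log2) ran from -0.17 to 0.24 with GCRMA and from -0.26 to 0.15 with dChip. With GCRMA 7 of 10 were below 0 and with dChip 6, with medians of -0.054 and -0.056, beside 0.001 and -0.009 over all probe sets. The sign was the same in both sets and both normalizations for 3 of the 10 probe sets, those of Vpreb3 (93957_at), Cd79b (161012_at) and Rag1 (161740_r_at).

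**Figure D1:**
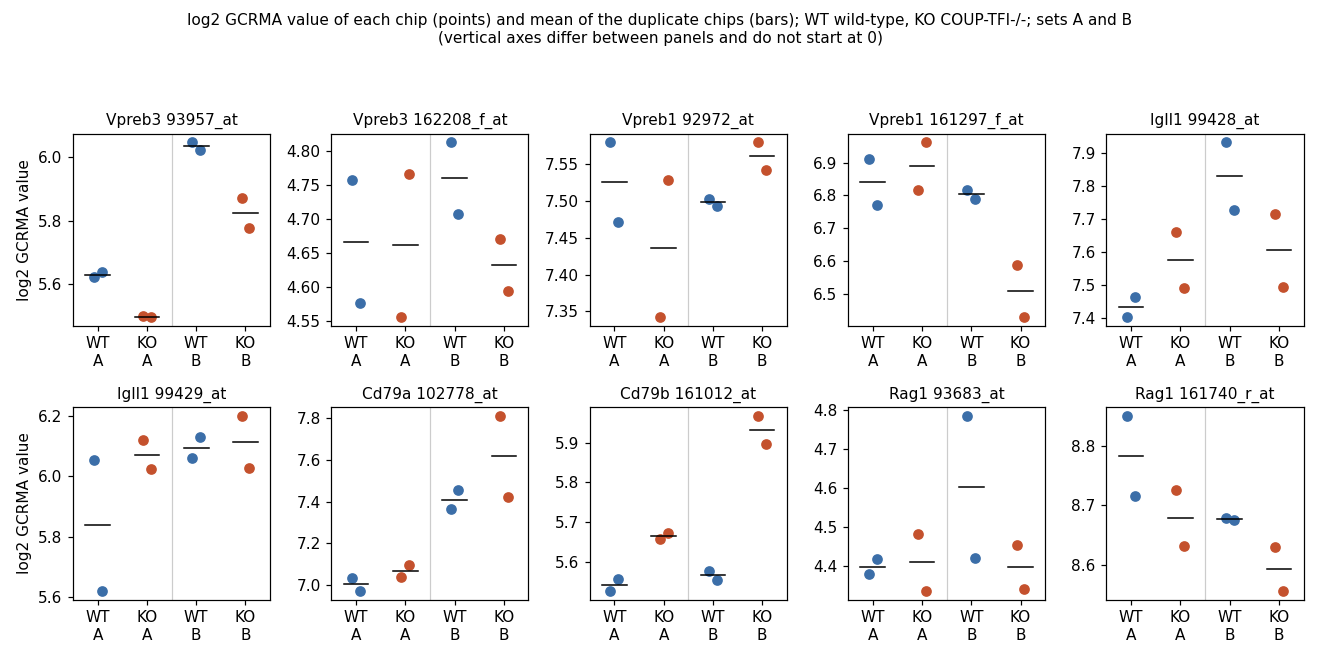
GCRMA value (log2, vertical axis) of each chip for the 10 probe sets, with duplicates of a pool side by side (blue points, wild-type; orange points, COUP-TFI-/-) and their mean as a bar, in set A (left of the line) and set B (right). Vpreb3 93957_at lies lower on the COUP-TFI-/- chips within each set and higher in set B than in set A, and all 4 COUP-TFI-/- chips of Cd79b lie above the 4 wild-type chips.

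Vpreb3 encodes a small immunoglobulin-like protein that associates with newly made heavy chains in the endoplasmic reticulum of B cell precursors. Its main probe set, 93957_at, read 5.62 and 5.64 on the wild-type chips of set A and 6.05 and 6.02 on those of set B (log2 GCRMA). On the COUP-TFI-/- chips, set A gave 5.50 and 5.50, and set B gave 5.87 and 5.78. Within each set both COUP-TFI-/- chips were below both wild-type chips, while the COUP-TFI-/- chips of set B were above the wild-type chips of set A. The dChip intensities had the same order. They were 51.6 and 51.1 (wild-type) against 44.1 and 46.2 (COUP-TFI-/-) in set A, and 67.9 and 77.3 against 59.9 and 55.4 in set B. This ordering within both sets was met by 3.65% of all probe sets with GCRMA and by 4.06% with dChip, and by 1 of the 10 member probe sets in each. The wild-type level was 1.13 times that of COUP-TFI-/- with GCRMA and 1.20 times with dChip. The log2 difference was -0.17 (SE 0.096, 95% interval -0.38 to 0.03; limma, adjusted p = 0.9999) with GCRMA and -0.26 (SE 0.11, interval -0.52 to 0.007; adjusted p = 0.9999) with dChip. Set A gave -0.13 and set B gave -0.21 with GCRMA, and with dChip they gave -0.185 and -0.331. In ascending order the pool means (log2 GCRMA) were 5.50 (COUP-TFI-/-, A), 5.63 (wild-type, A), 5.83 (COUP-TFI-/-, B) and 6.04 (wild-type, B). Each step was wider than the gap between the duplicates on either side, but each is 1 pool and has no spread between pools.

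Vpreb3 was low in these ears, at percentile 23.3 of all probe sets with GCRMA and 8.75 with dChip. The main probe sets of Vpreb1, Igll1 and Cd79a were higher, at percentiles 56.1, 58.5 and 51.2 with GCRMA. With dChip these were 34.9, 42.9 and 54.8. The other Vpreb3 probe set, 162208_f_at, whose suffix marks probes shared by a sequence family, lay at percentiles 10.7 and 9.57. It read 4.58 to 4.81 on the wild-type chips and 4.56 to 4.77 on the COUP-TFI-/- chips, and the genotypes overlapped in set A, while in set B both COUP-TFI-/- chips were below both wild-type chips. Its difference was -0.067 with GCRMA and -0.029 with dChip, and in set B the sign of the dChip value was opposite (0.015). Across the 8 chips the Vpreb3 probe sets had a Pearson r of 0.37 with GCRMA and 0.52 with dChip, given as a description since chips share pools.

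Vpreb1 and Igll1 encode the surrogate light chain proper, VpreB1 as its variable-like part and lambda5 as its constant-like part. Vpreb1 is nearly identical to its paralog Vpreb2, so its probe sets may measure both, and Vpreb2 has no probe set of its own symbol here. The main Vpreb1 probe set, 92972_at, read 7.58, 7.47, 7.50 and 7.49 on wild-type chips A1, A2, B1 and B2 and 7.34, 7.53, 7.58 and 7.54 on the COUP-TFI-/- chips in that order (log2 GCRMA). The genotypes overlapped in set A, while in set B both COUP-TFI-/- chips were above both wild-type chips, and the difference was -0.013 (SE 0.097, interval -0.22 to 0.19; limma, adjusted p = 0.9999). With dChip the same chips read 217, 205, 133 and 163 against 221, 228, 177 and 161, a difference of 0.146 (interval -0.11 to 0.41). Its GCRMA and dChip values were not aligned over the 8 chips (r = -0.21), the lowest such value of the 10 probe sets, of which Vpreb3 93957_at had the highest (0.97).

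The second Vpreb1 probe set, 161297_f_at, read 6.77 to 6.91 on the wild-type chips. The COUP-TFI-/- chips read 6.82 and 6.96 in set A but 6.59 and 6.43 in set B, where both were below both wild-type chips. Set A gave a difference of 0.049 and set B one of -0.296 with GCRMA, and with dChip these were -0.005 and -0.331. The difference between the sets was 0.34 (limma interaction on the 8 chips, adjusted p = 0.22) with GCRMA. The probe sets of Vpreb1 had r = -0.21 with GCRMA and 0.40 with dChip over the 8 chips.

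Igll1 99428_at read 7.40 and 7.46 on the wild-type chips of set A, below the 7.66 and 7.49 of COUP-TFI-/-. In set B it read 7.93 and 7.73 in wild-type, above the 7.71 and 7.50 of COUP-TFI-/- (log2 GCRMA). The genotypes thus did not overlap within either set but were in opposite order, with differences of 0.143 and -0.224. With dChip both sets were below 0 (-0.015 and -0.17). The difference over both sets was -0.04 (interval -0.27 to 0.19) with GCRMA and -0.092 with dChip. The other probe set, 99429_at, read 5.62 to 6.13 on the wild-type chips and 6.02 to 6.20 on the COUP-TFI-/- chips, with differences of 0.126 (GCRMA) and 0.008 (dChip). The Igll1 probe sets had opposite signs of the genotype difference with both normalizations, and r between them was 0.45 with GCRMA and 0.77 with dChip.

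Cd79a and Cd79b encode the Ig-alpha and Ig-beta chains, whose cytoplasmic tails carry the signalling motifs of the pre-B and B cell receptors. Cd79b (161012_at) read 5.53, 5.56, 5.58 and 5.56 on wild-type chips A1, A2, B1 and B2 and 5.66, 5.67, 5.97 and 5.90 on the COUP-TFI-/- chips (log2 GCRMA). All 4 COUP-TFI-/- chips were above all 4 wild-type chips, as in 1.35% of all probe sets, and within both sets, as in 4.6%. The difference was 0.24 (SE 0.10, interval 0.03 to 0.46; limma, adjusted p = 0.98), from 0.123 (A) and 0.364 (B), a COUP-TFI-/- level 1.18 times that of wild-type. With dChip the chips read 79.9, 62.3, 91.8 and 99.1 in wild-type against 80.9, 83.0, 107 and 86.0 in COUP-TFI-/-, and the genotypes overlapped in set B. The dChip difference was 0.113 (interval -0.16 to 0.39), from 0.216 (A) and 0.01 (B). None of the 10 member probe sets, 0 in all, was above wild-type within both sets with dChip, beside 4.09% of all probe sets. Cd79b lay at percentile 22.2 with GCRMA and 15.2 with dChip.

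Cd79a (102778_at) read 7.03 and 6.97 in wild-type and 7.04 and 7.10 in COUP-TFI-/- in set A, and 7.36 and 7.45 against 7.81 and 7.42 in set B (log2 GCRMA). The difference was 0.137 (SE 0.097, interval -0.07 to 0.34; limma, adjusted p = 0.9999). With dChip it was 0.006, from 0.12 (A) and -0.108 (B). With dChip the genotype difference in set A minus that in set B was 0.23 and did not pass (limma interaction on the 8 chips, adjusted p = 0.29). Cd79a and Cd79b had r = 0.70 over the 8 chips with GCRMA and 0.74 with dChip, values that include the common shift between sets and pools.

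Rag1 encodes the catalytic chain of the recombinase. Its main probe set, 93683_at, lay at percentile 8.71 with GCRMA and 6.44 with dChip. It read 4.38 to 4.78 on the wild-type chips and 4.34 to 4.48 on the COUP-TFI-/- chips, with overlap, and the difference was -0.097 (interval -0.31 to 0.11). The other probe set, 161740_r_at, whose suffix marks probes that failed some of the maker's design rules, lay at percentile 79.6. It read 8.85, 8.72, 8.68 and 8.68 in wild-type and 8.73, 8.63, 8.63 and 8.56 in COUP-TFI-/-, with differences of -0.094 (GCRMA) and -0.164 (dChip) and negative values in both sets. Only set B kept the genotypes apart in GCRMA. The Rag1 probe sets had r = 0.083 with GCRMA and 0.23 with dChip.

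**Figure D2:**
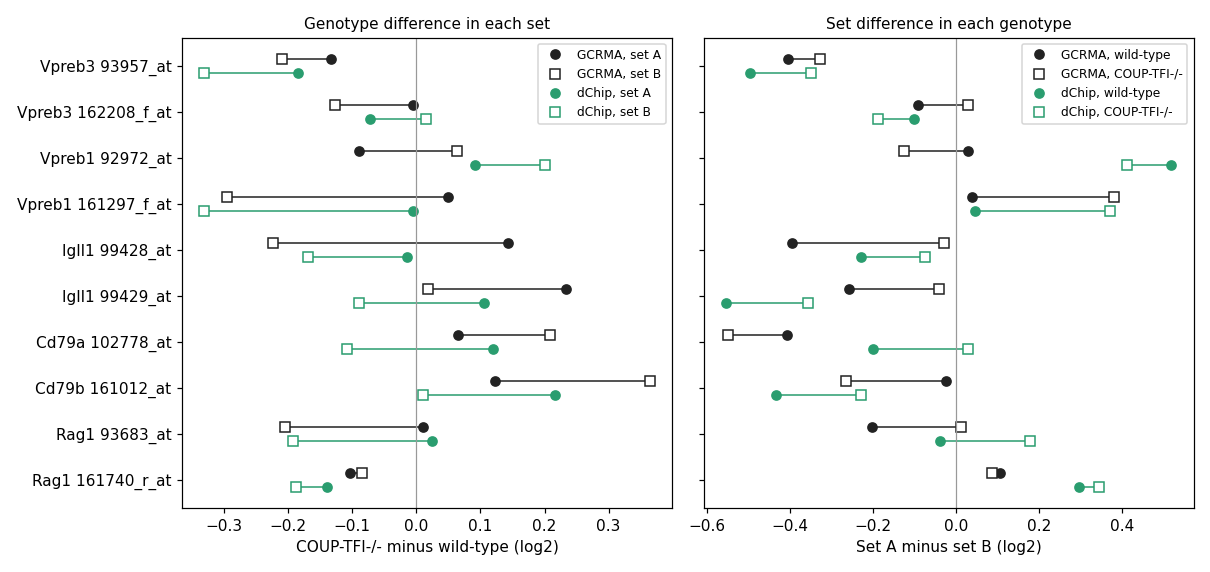
Log2 differences of the 10 probe sets: COUP-TFI-/- minus wild-type in set A and set B (left) and set A minus set B in each genotype (right), with GCRMA in black and dChip in green, circles and squares as in the keys and a line joining each pair. Vpreb3 93957_at is left of 0 in all 4 values of both panels, and Vpreb1 92972_at has values on both sides of 0 with GCRMA but right of 0 with dChip.

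Some of these genes had wider differences between sets than between genotypes. With GCRMA, Cd79a was higher in set B by 0.48 log2 units (set A minus set B -0.48, SE 0.097; limma, adjusted p = 0.0020) and Vpreb3 93957_at by 0.37 (-0.37, SE 0.096; adjusted p = 0.011). For these 2 probe sets all 4 chips of set B were above all 4 of set A, as in 20% of all probe sets. At the adjusted p, 12.2% of all probe sets were higher in set B and 13.6% higher in set A, and 2 of the 10 member probe sets were higher in B and 0 in A. With dChip, 11.7% of all probe sets passed in either direction, and 1 member did, Vpreb1 92972_at, which was higher in set A by 0.465 (limma, adjusted p = 0.047).

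For Vpreb1 92972_at the GCRMA set difference was -0.049 and did not pass. Vpreb3 93957_at had -0.424 with dChip (adjusted p = 0.060) and Cd79a -0.086 (adjusted p = 0.63). With dChip, 3 member probe sets had every chip of set B above every chip of set A, beside 20.4% of all probe sets, and 2 had the reverse, beside 20.1%. In the whole tissue the inner ear markers also moved with the set. Of 15 measured, 9 passed the adjusted p as higher in set A with GCRMA and 1 as higher in set B, beside 13.6% and 12.2% of all probe sets. The summed dChip intensity of these markers was 15010 to 15250 on wild-type chips of set A and 12040 to 12260 on those of set B. Their part in the set difference of the B cell genes was not tested.

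**Figure D3:**
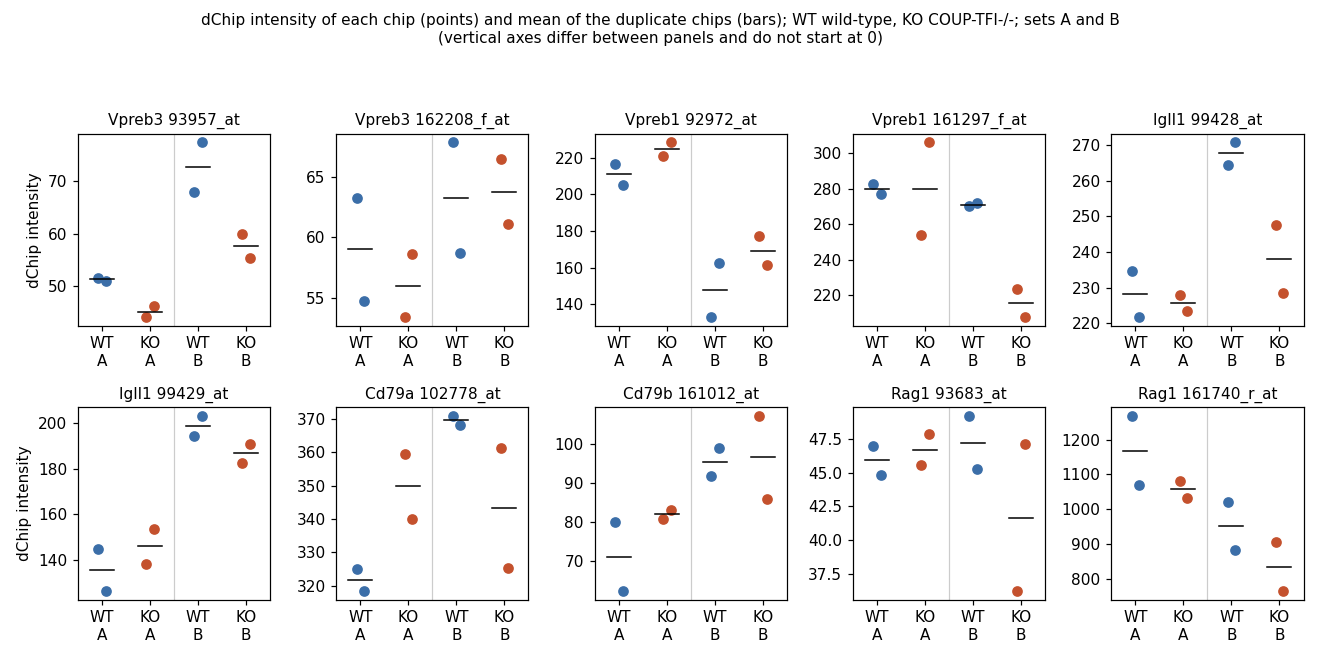
dChip intensity (linear, vertical axis) of each chip for the same 10 probe sets, with duplicates of a pool side by side (blue points, wild-type; orange points, COUP-TFI-/-), their mean as a bar, and sets A and B left and right of the line. Vpreb3 93957_at keeps the order it has with GCRMA, Cd79b overlaps between genotypes in set B, and Vpreb1 92972_at is higher in set A.

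A test of whether genotype differed between sets passed for 0 of the 10 probe sets, with either normalization (limma interaction on 8 chips, adjusted p 0.05), beside 0.958% of all probe sets with GCRMA and 0.459% with dChip. At an unadjusted p under 0.05, 3 passed with GCRMA, beside 16.4% of all probe sets, and 1 with dChip, beside 21.1%. The largest GCRMA value was that of Igll1 99428_at, 0.37 (adjusted p = 0.25). This test takes duplicate chips of a pool as its error and so leaves out the spread between pools.

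The other genes of the pathway, in lists chosen with earlier results of these data known, had 0 genotype calls in either normalization. These lists cover the pre-B cell receptor and immunoglobulin genes (9 of 12 genes measured, 4 higher and 5 lower in COUP-TFI-/-), V(D)J recombination and end joining (8 of 14, 3 and 5) and B lineage transcription factors (22 of 26, 12 and 10). The lists of B cell receptor signalling (21 of 25, 14 and 7), IL-7 receptor, niche and homing signals (18 of 22, 9 and 9) and B cell surface and antigen presentation (17 of 20, 12 and 5) were likewise without a call. Their median genotype differences were -0.013, -0.064, 0.019, 0.028, 0.006 and 0.033 (log2 GCRMA), in that order, beside 0.001 over all probe sets. The counts of higher and lower genes given above are those with GCRMA. With dChip they were 5 and 4, 2 and 6, 10 and 12, 11 and 10, 7 and 11, and 5 and 12 in the same order. At an unadjusted p under 0.05 with GCRMA, 1 gene passed in the first list (Cd79b), 1 in the niche list (Vcam1) and 0 in the others, beside 4.58% of all probe sets, and with dChip 0 passed, beside 2.13%. By set (GCRMA, adjusted), the genes called higher in A and in B were 1 and 2, 0 and 0, 4 and 2, 1 and 2, 4 and 4, and 1 and 3 in the same order of lists. Over all probe sets 13.6% were called higher in A and 12.2% higher in B. The first 2 lists include the 6 genes themselves. In the same order of lists, 3, 3, 5, 6, 6 and 1 measured genes had mean GCRMA levels in the lowest 25% of probe sets. Among them are Jchain, Rag2, Dntt, Myb, Ptpn6, Il7, Il7r and Cd44, named below. At such levels a difference near 0 may not show an unchanged gene.

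Ighm, the mu heavy chain that pairs with the surrogate light chain, differed by 0.026 (adjusted p = 0.9999, limma). Ighd, the delta heavy chain, differed by -0.164 and Jchain, which joins secreted antibody, by -0.155. Rag2, the partner of RAG1, had 0.109 and Dntt, which adds nucleotides at the joins, had -0.07. Of the repair and chromatin factors in that list, Hmgb2 had -0.202 and Xrcc6, a part of Ku, had 0.159.

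Ebf1 and Pax5, the transcription factors that specify and commit the B lineage, had genotype differences of -0.124 and -0.114. Tcf4, an E protein, had -0.168 and Myb, needed by progenitors, had 0.124. Ebf1 is also expressed in stromal and neural tissue, and its set difference was 0.77 (limma, adjusted p = 3.5e-05), higher in set A. In the signalling list the lowest unadjusted p belonged to the phosphatase Ptpn6 (0.17) and the kinase Pik3cd (0.15). Neither passed after adjustment.

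Vcam1, an adhesion molecule of endothelium and marrow stroma, had the greatest genotype difference of the niche list, 0.40 (SE 0.10; limma, adjusted p = 0.35) with GCRMA, and 0.065 with dChip. Stat5a, which relays IL-7 signals, had 0.22. The IL-7 receptor gene Il7r had -0.042 and Il7 had 0.015, at low mean levels of 3.96 and 3.87 (log2 GCRMA). Cxcr5, a receptor of mature B cells, differed by set, -0.84 (adjusted p = 2.0e-05), which was higher in set B. In the surface list Cd44 had 0.194 and Cd40 had 0.116, with -0.018 and -0.019 with dChip.

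**Figure D4:**
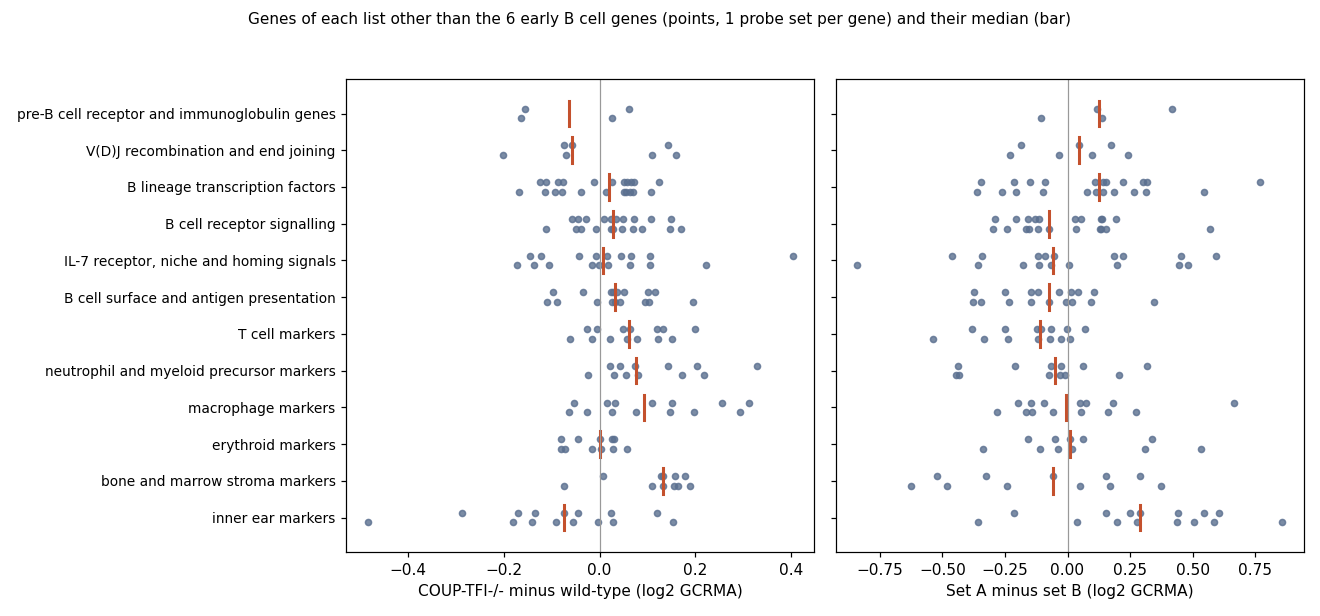
Log2 GCRMA differences by genotype (left) and by set (right) for the genes of 6 pathway lists and 6 marker lists, without the 6 early B cell genes, with 1 point per gene and an orange bar at the median of the points. Bone and marrow stroma points lie mostly right of 0 in the left panel, and inner ear points mostly right of 0 in the right panel.

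Markers of other cells that a whole ear may hold were read beside these values. For bone and marrow stroma, 10 of 11 measured genes were higher in COUP-TFI-/-, with a median of 0.13 (GCRMA), and 0 passed. Their summed dChip intensity was 23780 to 23910 on wild-type chips of set A against 26160 to 26960 on COUP-TFI-/- chips, and 25020 to 25750 against 26710 to 27500 in set B, so the genotypes did not overlap within a set. The summed inner ear markers did not overlap either, in the opposite direction, with 15010 to 15250 in wild-type against 13850 to 14270 in COUP-TFI-/- in set A, and 12040 to 12260 against 11220 to 11290 in set B. The sums of macrophage, neutrophil and erythroid markers overlapped between genotypes in set A, and those of T cell markers in set B. In the other set of each list both COUP-TFI-/- chips were above both wild-type chips. In set B macrophage markers gave 7772 to 7848 (wild-type) against 8436 to 8930. There neutrophil markers gave 3723 to 3825 against 3931 to 3948 and erythroid markers 19120 to 19470 against 19570 to 19750. T cell markers gave 3226 to 3346 against 3385 to 3418 in set A. Such sums of linear intensities weigh abundant genes most. With GCRMA 11 of 14 macrophage markers were higher (median 0.093). For neutrophil and myeloid precursor markers the count was 11 of 12 (0.077) and for T cell markers 10 of 14 (0.060). The dChip counts were 10, 8 and 8 in that order. Erythroid markers were balanced with GCRMA, with 5 higher and 5 lower of 11, and with dChip 4 were higher and 7 lower. Of 15 inner ear markers 11 were lower with GCRMA (median -0.074) and 12 with dChip, again with 0 calls. At an unadjusted p under 0.05 with GCRMA, 2 neutrophil, 3 macrophage and 2 inner ear markers passed, and 0 in the other 3 lists, beside the same 4.58% of all probe sets. Few dChip values of any probe set were near 0, and no listed marker was at 0 with dChip in any of these lists. Whether they contribute to the values of Cd79b, Vpreb3 or the other early B cell genes was not tested.

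Patterns were compared over the 8 chips after subtraction of each set's mean but not each genotype's, so a shared genotype difference can raise r. The genes nearest to the main probe set of each member were as follows. Vpreb3 was nearest to Ucp1 (r = 0.98), Hprt (0.98) and Prr5 (0.97), and with dChip these r were 0.90, 0.58 and 0.26. Vpreb1 was nearest to Tgfb3 (0.97), Cyp2e1 (0.97) and Emc4 (0.96), and Igll1 to Mbd4 (0.99), Samhd1 (0.95) and Slc4a5 (0.95). Cd79a was nearest to Taf6 (0.99), D13Ertd608e (0.99) and Rps4x (0.99), Cd79b to Dok1 (0.995), Pla2g5 (0.99) and Nfil3 (0.98), and Rag1 to Sf3a3 (0.99), Mapre2 (0.96) and Btbd1 (0.96). Ucp1, the uncoupling protein of brown fat, differed by genotype by -1.26. In the study's real-time RT-PCR on individual pairs of ears the change of Ucp1 did not reach significance. None of these genes is in a pathway list used here. These values are the highest over all probe sets with a gene symbol, on 8 chips that share pools, and except for Ucp1 and Btbd1 (dChip r of 0.63) the dChip r of the same pairs was at most 0.58.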

How the data were processed

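Whole inner ear RNA of newborn wild-type and COUP-TFI-/- mice was measured on 8 MG-U74Av2 chips, grouped by the labels. The authors normalized the chips with GCRMA and deposited log2 values, and with dChip and deposited linear intensities. Software versions are not given in the sources used here. The letter of a replicate was read as the hybridization set and its number as the duplicate.

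Of 12488 probe sets, 66 controls were left out, and 1 probe set without dChip values (8 missing values) was left out of dChip. Before log2, 89 dChip values were raised to a floor of 1. Duplicate chips were averaged, and limma 3.58.1 in R 4.3.3 fitted genotype with the set as a block to the 4 pool means, with Benjamini-Hochberg adjustment over all probe sets at 0.05. Duplicates of a pool were 1 replicate. The interaction was fitted to the 8 chips. The set differences of both genotypes had r = 0.75 (GCRMA) and 0.69 (dChip) over probe sets. Pools were paired by set, since the methods describe 1 pool of each genotype in each set. The labels themselves do not name the sets. The limma fit has 1 residual degree of freedom and leans on the spread of all probe sets. Arrays give no counts, and the number of pools limits the precision. Scripts were tested on simulated data.

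The members and the 12 gene lists were chosen with earlier results of these data known. Named genes were all member probe sets, the 2 genes of lowest unadjusted p in each pathway list, and the 3 genes nearest in pattern to each member's main probe set, which is the one of highest mean GCRMA value without a suffix letter. Ighm, Rag2, Dntt, Ebf1, Pax5, Il7, Il7r and Cxcr5 were named for their role after their values were seen. Each gene of a list was read by 1 probe set. Alternatives were the other normalization, quantile normalization, no block, each chip left out, chip-level fits, the methods' 2-way analysis of variance, a variance trend, a filter on means under 5 and a dChip floor of 16. The 16 deposited value columns were used. Promoter letters came from RefSeq.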

Additional observations from a re-analysis of the deposited data

Results flagged for a closer look

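On wild-type chip A2, Igll1 99429_at read 5.62 (log2 GCRMA), apart from the other 3 wild-type chips. On wild-type chip B1, Rag1 93683_at read 4.783, also apart from the others. In each case the gap to the nearest chip, over the range of the group, exceeded Dixon's 95% value. Of 40 groups, 2 were picked out. Chance picks about 1 in 20 among independent values, which duplicate chips from 2 sets are not. For Igll1 99428_at with GCRMA, both COUP-TFI-/- chips were above wild-type in set A and below it in set B, a difference between sets of 0.367 that did not pass (limma interaction, adjusted p = 0.25). Cd79a with dChip had the same kind of opposite order, with a genotype difference that differed between sets by 0.228 (limma interaction, adjusted p = 0.29).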

How the results depend on the processing

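With another processing, none of the 10 probe sets passed the adjusted p for genotype, in 158 GCRMA and 100 dChip values; the lowest was 0.055. Of the 158, 152 kept their sign and 6 turned, and of the 100, 88 and 12. Over all probe sets the GCRMA genotype count was 13, and it was 1 with dChip, 2 after quantile normalization, 0 with no replicate block, 159 with limma on 8 chips, 27 with the pool as a random block, 1 with the methods' 2-way analysis of variance and 20 without probe sets under a mean of 5. Leaving out 1 chip gave 1 to 54 (wild-type A1 22, A2 2, B1 3; COUP-TFI-/- A1 1, B1 54). The dChip count of 1 became 0 with a floor of 16 and 0 with no replicate block, and 1 to 5 without 1 chip (wild-type B2 3, COUP-TFI-/- A2 5). The block changed no call of the 10 probe sets.

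Vpreb1 92972_at turned to 0.146 with dChip and ran from -0.06 to 0.033 without 1 chip, and Igll1 99428_at from -0.096 to 0.015. With dChip, leaving out 1 chip gave -0.082 to 0.023 for Vpreb3 162208_f_at, -0.042 to 0.058 for Igll1 99429_at, -0.032 to 0.044 for Cd79a and -0.178 to 0.012 for Rag1 93683_at. The set count of 3205 became 1449 with dChip and 2046 to 3309 without 1 chip (COUP-TFI-/- A1 2046). By set, dChip gave -0.424 for Vpreb3 93957_at and -0.086 for Cd79a, which no longer passed, and 0.465 for Vpreb1 92972_at and 0.068 for Rag1 93683_at, which turned; Vpreb3 162208_f_at ran from -0.085 to 0.021 without 1 chip. The interaction count of 119 became 57 with dChip, 5 with the methods' analysis of variance and 23 to 237 without 1 chip (wild-type A1 38, A2 32, B2 23; COUP-TFI-/- A1 37, A2 29, B2 237). The interaction turned with dChip to -0.088 for Vpreb3 162208_f_at, 0.228 for Cd79a, 0.205 for Cd79b and 0.049 for Rag1 161740_r_at, and without 1 chip ran from -0.087 to 0.048 for Rag1 161740_r_at, -0.002 to 0.434 for Igll1 99429_at and -0.338 to 0.05 for Cd79a. The filter left out Rag1 93683_at and Vpreb3 162208_f_at. The cause of these changes was not tested.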
